A study of Mus musculus with 27 samples.

Results

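Gene ends of VavP-Bcl2 B220-positive cells that carried the empty vector were sorted by DNA methylation and by expression of the gene. An end was one of the outer limits of a protein-coding gene on the autosomes, and its methylation level was the mean percent methylation of the CpG cytosines within 1000 bases on either side. A cytosine counted when it had 10 or more calls in each of the 3 vector libraries of ERRBS, a bisulfite sequencing method for CpG-rich DNA (enhanced reduced representation bisulfite sequencing), and an end needed at least 3 of them. Of 41330 ends of 20665 genes, 15980 ends of 13228 genes had both a level and an RNA-seq value. These were 9893 starts, 2752 finishes and 3335 ends whose strand was not known, and the description below is of the starts unless another kind is named. A start was called unmethylated under 10% and methylated from 70%, and a gene was called silent under a mean of 0.5 TPM (a measure of transcript abundance that sums to the same value in every sample) and expressed from 5 TPM in the 3 vector RNA-seq libraries. The 3 classes of interest held 1182 silent genes with an unmethylated start, 414 silent genes with a methylated start and 66 genes expressed despite a methylated start.

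All cells came from the VavP-Bcl2 model, a mouse in which Vav regulatory sequences drive the survival gene Bcl2 throughout the blood system and B cell lymphomas develop. Its haematopoietic stem cells, from E13.5 fetal liver, were given MSCV-SHMT2, a retrovirus that expresses the serine hydroxymethyltransferase SHMT2, or the empty vector, and grafted into irradiated wild-type mice. Tumour cells positive for B220, a form of the surface protein CD45 carried by B cells, were then isolated from the spleen, and the labels do not say whether B cells of the host were removed. There were 3 SHMT2 and 3 vector libraries of RNA-seq and of ERRBS, and 2 vector libraries each of H3K4me3 and H3K4me1 ChIP-seq, while the labels of the ERRBS samples do not describe graft or organ. The transfection labels of SHMT2 replicates 2 and 3 of ERRBS read SHMT3 and SHMT4, and their titles, which name SHMT2, were followed.

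The ERRBS libraries had a mean coverage of 63.5 to 72.3 calls per autosomal cytosine, and the depth behind the TPM values is unknown. The labelled cell type was checked against 37 B cell identity genes, whose summed level was 19598, 15018 and 15027 TPM in vector replicates 1, 2 and 3. Genes of red cells summed to 468, 10595 and 2500 TPM in the same libraries, and genes of macrophages and neutrophils to 501, 5372 and 4214 TPM. Of 32 measured red cell genes, 4 were listed at 0 in all 3 vector libraries, all of them haemoglobin genes, and of 42 macrophage and neutrophil genes 0 were. Vector replicates 2 and 3 thus held more transcripts of other blood cells than replicate 1, and their part in the results was not tested except where replicate 1 is given alone. In bulk libraries, fewer cells of a type and less RNA per cell cannot be told apart.

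In mammalian cells most CpG sites are methylated, while CpG islands, the CpG-rich stretches at many gene starts, are kept free of methylation, in part by H3K4me3, the histone mark of active or poised starts, which repels the de novo methyltransferases. Unmethylated islands can still be silent, often under Polycomb proteins, as at developmental regulators in differentiated cells. A smaller set of CpG-containing starts, many of them of germline genes, is methylated and silent in body tissues, whereas methylation inside the transcribed body of a gene goes along with transcription.

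The sequences below are the promoters of the start with the most measured cytosines in each class, first among all its genes and then among members of the gene lists. They show where the measured cytosines lie at the best covered starts, and they do not stand for their classes, whose median numbers of CpG per promoter were 21 in silent unmethylated, 6 in silent methylated and 7 in expressed methylated starts, against 22 at all starts. Each is the RefSeq stretch from 250 bases before to 50 bases after a transcript start on GRCm38.p6, written 5′ to 3′, with capitals on every CpG that held a measured cytosine. The first pair comes from silent genes with an unmethylated start.
Epb41l4b, chr4:57143107-57143406, minus strand: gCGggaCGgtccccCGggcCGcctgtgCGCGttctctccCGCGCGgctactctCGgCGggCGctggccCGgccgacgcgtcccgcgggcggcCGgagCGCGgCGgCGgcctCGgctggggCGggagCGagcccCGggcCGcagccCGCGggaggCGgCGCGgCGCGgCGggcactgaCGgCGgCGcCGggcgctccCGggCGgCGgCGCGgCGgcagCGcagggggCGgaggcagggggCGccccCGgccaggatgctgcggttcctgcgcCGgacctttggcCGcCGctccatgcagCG
Six2, chr17:85688205-85688504, minus strand: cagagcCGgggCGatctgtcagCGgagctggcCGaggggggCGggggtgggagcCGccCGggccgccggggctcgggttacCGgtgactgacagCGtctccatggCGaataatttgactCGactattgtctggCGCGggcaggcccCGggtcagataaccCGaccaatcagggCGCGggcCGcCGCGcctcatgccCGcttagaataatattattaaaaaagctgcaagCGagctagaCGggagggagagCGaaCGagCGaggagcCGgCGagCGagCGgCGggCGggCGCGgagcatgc
The promoter of Epb41l4b, a band 4.1 family protein that links membrane and cytoskeleton, holds 58 CpG, of which 49 were measured, and their level was 1.52, 0.630 and 1.53% in vector replicates 1, 2 and 3. That of Six2, a homeobox factor of kidney progenitors, holds 37 CpG with 34 measured, at 4.44, 4.16 and 5.49%. Both were low in all 3 libraries. The next pair comes from silent genes with a methylated start.
Rbmxl2, chr7:107209195-107209494, plus strand: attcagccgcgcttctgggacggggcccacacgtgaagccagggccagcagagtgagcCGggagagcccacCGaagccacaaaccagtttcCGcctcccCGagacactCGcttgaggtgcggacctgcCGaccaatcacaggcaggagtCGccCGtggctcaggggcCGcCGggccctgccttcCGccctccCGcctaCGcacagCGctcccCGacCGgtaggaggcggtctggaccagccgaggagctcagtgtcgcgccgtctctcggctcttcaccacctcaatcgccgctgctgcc
Slc25a31, chr3:40708621-40708920, plus strand: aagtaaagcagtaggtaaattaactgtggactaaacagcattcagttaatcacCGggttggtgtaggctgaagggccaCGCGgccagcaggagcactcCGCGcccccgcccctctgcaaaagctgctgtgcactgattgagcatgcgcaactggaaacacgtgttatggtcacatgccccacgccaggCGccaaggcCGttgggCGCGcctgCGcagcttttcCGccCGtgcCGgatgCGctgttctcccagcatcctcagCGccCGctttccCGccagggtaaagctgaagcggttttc
The promoter of Rbmxl2, an RNA-binding protein of the testis, holds 29 CpG, and the 16 measured ones stood at 75.8, 67.9 and 59.8%. That of Slc25a31, the ADP/ATP carrier of male germ cells, holds 22 CpG with 17 measured, at 94.2, 94.5 and 92.9%. Within the Rbmxl2 stretch single cytosines ranged from 24.9 to 94.3%, while those of Slc25a31 ranged from 84.4 to 98.5%. The last pair comes from expressed genes with a methylated start.
Nradd, chr9:110624344-110624643, minus strand: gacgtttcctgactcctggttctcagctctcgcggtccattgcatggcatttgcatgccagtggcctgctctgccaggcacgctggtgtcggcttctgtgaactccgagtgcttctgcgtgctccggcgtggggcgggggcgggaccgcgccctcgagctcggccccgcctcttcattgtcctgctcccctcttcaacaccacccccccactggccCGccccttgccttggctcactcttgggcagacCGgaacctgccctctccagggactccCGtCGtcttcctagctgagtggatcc
Trim10, chr17:36869324-36869623, plus strand: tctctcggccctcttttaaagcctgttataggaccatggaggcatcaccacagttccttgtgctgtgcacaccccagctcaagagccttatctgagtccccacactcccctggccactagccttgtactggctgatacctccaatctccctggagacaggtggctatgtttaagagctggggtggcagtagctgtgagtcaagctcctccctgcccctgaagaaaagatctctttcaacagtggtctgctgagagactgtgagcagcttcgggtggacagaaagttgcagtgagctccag
The promoter of Nradd, a death domain protein related to the neurotrophin receptors, holds 20 CpG, but only 4 were measured, at 86.1, 62.8 and 84.8%. The promoter of Trim10, a RING protein of red cell precursors, holds 2 CpG and neither was measured, so the level of its start rests on cytosines elsewhere within 1 kb.

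Across starts the level was under 10% at 5555 of 5824 expressed genes (95.4%) and spread widely among silent genes. Of 2482 silent starts 47.6% were unmethylated, 35.7% intermediate and 16.7% methylated. The median start stood at 0.564%, and the median SD between the 3 libraries was 0.244 percentage points. By expression, the median level was 19.6% in 939 genes listed at 0 in all 3 libraries, 8.45% up to 0.1 TPM, 5.49% from 0.1 to 0.5 TPM and 3.43% from 0.5 to 1 TPM. It was 0.816% from 1 to 5 TPM, 0.353% from 5 to 20 TPM, 0.300% from 20 to 100 TPM and 0.265% in the 1000 genes of 100 TPM or more. The share of methylated starts was 23.2% among genes listed at 0 and 1.00% at 100 TPM or more, and 31.3% of the genes listed at 0 had an unmethylated start. Across the 9893 genes Spearman's rho between level and mean TPM was -0.59. With the level of ERRBS replicate 1, 2 or 3 alone, against the same mean TPM, it was -0.59, -0.56 and -0.58. Genes are not independent replicates, and the points share 6 libraries. Among the 1907 starts with no H3K4me3 peak within 1 kb, rho was -0.04.

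**Figure D1:**
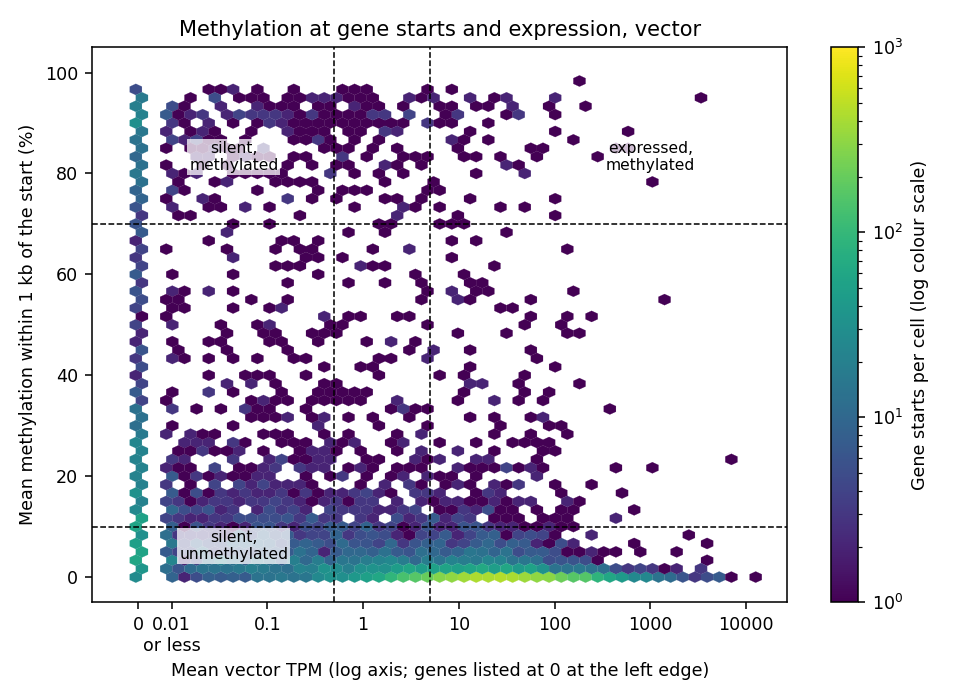
Mean methylation within 1 kb of each of 9893 gene starts (percent, y axis) against the mean vector TPM of the gene (log axis, with genes listed at 0 at the left edge). Colour gives the number of starts per cell on a log scale and dashed lines the class limits of 10% and 70% and of 0.5 and 5 TPM. Most expressed genes lie along the bottom, silent genes fill the whole height, and 66 genes lie in the upper right.

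At the other end of the gene the pattern was different. Finishes had a median level of 75.9% in genes listed at 0, 66.1% up to 0.1 TPM, 88.5% from 5 to 20 TPM and 87.5% at 100 TPM or more. Spearman's rho between level and TPM was 0.17 over 2752 finishes and 0.35 over the 2028 of them with no H3K4me3 peak within 1 kb. The first of these turned to -0.04 when at least 10 cytosines were asked for. Among the 2170 genes with both ends measured, the start was lower than the finish in 1762 (81.2%), with medians of 1.00% at the start and 81.5% at the finish. Among expressed genes with a measured finish, 882 finishes were at 70% or more and 264 under 10%.

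**Figure D2:**
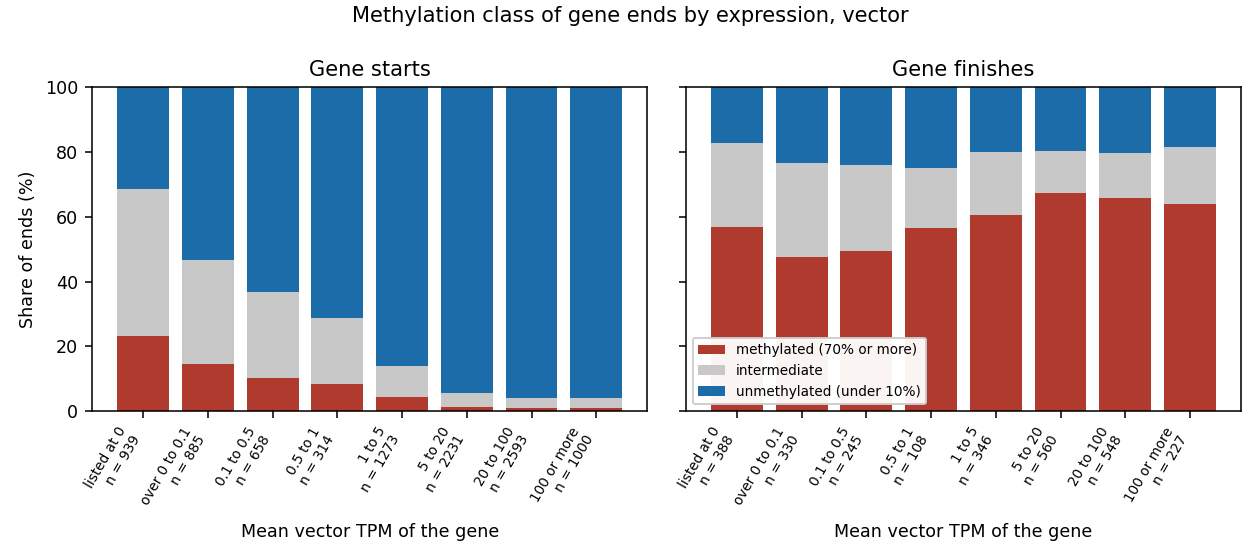
Share of gene starts (left) and gene finishes (right) that were methylated, intermediate or unmethylated (percent, y axis), by the mean vector TPM of the gene, with the number of ends under each bar. Among starts the methylated share is 23.2% for genes listed at 0 and 1.00% at 100 TPM or more, and among finishes it is 57.0% and 63.9%.

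The 3335 ends of unknown strand separated by H3K4me3. The 2038 with a peak in both vector libraries had a median level of 0.451% and held 12 expressed and methylated ends, while the 1217 without a peak had a median of 63.2% and held 207. These ends mix starts and finishes and were left out of the classes below.

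The silent genes with an unmethylated start were many and rested on dense data. Their median level was 3.37% over a median of 46 cytosines, against 0.564% over 41 cytosines at all starts, and the median SD between libraries was 0.681 points. The level was under 10% in every library for 1060 of the 1182 genes (89.7%), and the mean TPM was under 0.5 in every library for 1048 (88.7%). An H3K4me3 peak lay within 1 kb in both vector libraries at 698 of these starts (59.1%), in 1 library at 83 and in neither at 401 (33.9%). The share with it in both was 32.3% of all silent starts and 78.8% of all starts. The marked starts of this class had a median of 1.90% and the unmarked ones 6.01%. An H3K4me1 peak lay within 1 kb in both libraries at 41.0%. Another gene end lay within 1 kb of 177 of these starts (14.97%), and for 99 of them (8.38%) the neighbouring gene was expressed, against 14.4% of all starts.

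Among the 10 genes of this class with the most cytosines, the SD between libraries was at most 1.502 points. Hmga1, an architectural chromatin protein, had the lowest level, at 0.15, 0.15 and 0.24% over 201 cytosines, with 0.26, 0.29 and 0.21 TPM and H3K4me3 in both libraries. Kcng3, a potassium channel subunit, had 2.70, 2.36 and 2.46%, and Acvr1, a receptor of bone morphogenetic proteins, had 1.63, 1.25 and 1.72%, both with H3K4me3 in both libraries. Efna5, a membrane-bound ephrin that guides axons, was listed at 0 TPM in all 3 libraries and stood at 3.64, 3.25 and 2.91%, again with H3K4me3. Without any H3K4me3 peak were Hcn4, the pacemaker channel of the heart, at 7.63, 5.40 and 6.73%, Jph3, a junctophilin of brain, at 6.21, 4.46 and 5.40%, Cabp7, a calcium-binding protein, at 4.49, 3.77 and 4.66%, and Mark1, a kinase of microtubule-associated proteins, at 11.4, 8.68 and 8.90%. Their means ran from 4.30 to 9.65%, above those of the 4 marked starts just named, but within 500 bases of the start Cabp7 stood at 1.76%, among the marked ones. Mark1 left the class at 10.1% without vector replicate 2 and at 10.03% without replicate 3 of ERRBS. Epb41l4b sits on the limit of silence, at 0.0713, 1.42 and 0 TPM, and passed it without replicate 1 (0.711 TPM) or replicate 3 (0.746 TPM) of RNA-seq.

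Developmental transcription factors and signals accounted for 62 of the 1182 genes. Of 158 such genes 98 had a classed start, of which 93 were silent, and the silent ones held 62 unmethylated, 31 intermediate and 0 methylated starts, at a median of 7.74%. The intermediate share, 31 of 93, was near the 35.7% of all silent starts, and the unmethylated share stood against 47.6% of them. Six2 was listed at 0 TPM in all 3 libraries with a start level of 6.44, 4.50 and 7.08% over 174 cytosines. Foxl2, a factor of the ovary, was at 6.92, 4.37 and 4.97%, Foxc1, a factor of mesoderm, at 2.20, 1.66 and 1.66% and Barhl2, a factor of retina and brain, at 4.65, 3.68 and 4.55%, all with H3K4me3 in both libraries. Hoxd9 had no peak and stood higher, at 9.73, 7.21 and 11.4%, and without replicate 2 at 10.6%, outside the class. Of the 62 unmethylated starts 35 carried H3K4me3 in both libraries and 23 in neither, and of the 31 intermediate ones 2 carried it in both and 28 in neither. The intermediate ones lay close to the limit, with a median of 12.9%, among them Nkx6-1 at 12% and Sox2 at 16%. Hoxa5 differed from the rest of the list, with a level of 90% over 92 cytosines at 4.9 TPM.

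Histone genes and a glycolytic gene also fell in this class. All 24 replication-dependent histone genes with a classed start had H3K4me3 in both libraries. Their mRNA ends in a stem-loop in place of the poly(A) tail that mRNA kits capture, and its part in these values was not tested. Of the 24, 10 were silent with an unmethylated start, against 11.9% of all starts, and 2 were silent with a methylated start. A further 5 were low (0.5 to under 5 TPM) and 7 expressed, all with an unmethylated start. H4c1 stood at 0.05, 0.28 and 0.00% with 0.02, 0.12 and 0.03 TPM. Of 56 genes that nearly every cell uses, 47 were expressed with an unmethylated start. Another 5 were low, from 0.5 to under 5 TPM, all with an unmethylated start and H3K4me3 in both libraries. Only 1, the glycolytic enzyme Eno1, was silent by its values. It was listed at 0 TPM in all 3 libraries with a level of 0.21, 0.19 and 0.53% and H3K4me3 in both. A listed 0 was therefore not read as absence of the transcript, and 294 of the 1182 genes (24.9%) were listed at 0 in all 3 libraries.

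Members of other lists were few. Kdr, the VEGF receptor of endothelium, had 3.85, 4.09 and 3.35%, Wif1, a secreted inhibitor of Wnt, 2.76, 1.08 and 2.03%, and Epha7, an ephrin receptor, 7.40, 7.14 and 8.39%. Pdgfra, a receptor of mesenchymal cells, rested on 3 cytosines and varied, at 16.9, 2.78 and 1.52%. By gene symbol, in a grouping made after the values were seen, 10 of 19 Cfap genes (cilia and flagella proteins) and 14 of 48 potassium channel genes (Kcn) were silent and unmethylated, against 11.9% of all starts. A further 18 of the Kcn genes were silent and intermediate.

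The silent genes with a methylated start were fewer and rested on thinner data. Their median level was 87.6% over a median of 6 cytosines, with a median SD between libraries of 2.53 points, and 379 of 414 were at 70% or more in every library. In all, 218 of them (52.7%) were listed at 0 TPM in all 3 libraries. H3K4me3 was found within 1 kb in both libraries at 12 of these starts (2.90%) and in neither at 398 (96.1%), and 385 (93.0%) had no peak of either mark. Their promoters were poor in CpG, with a median of 6 CpG per 300 bases against 22 at all starts, and the ratio of observed to expected CpG was 0.30 against 0.77. The letters TATAAA, searched on both strands, were in 16.0% of these promoters and in 6.56% of all promoters, while CACGTG, searched likewise, was in 8.40% and 10.6%.

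Germline genes were 7 of the 10 members of this class with the most cytosines. Of 51 germline genes with a classed start 42 were silent, and of these 32 were methylated, 6 intermediate and 4 unmethylated, with a median of 89.5% over the silent ones. Of all silent starts 16.7% were methylated, 35.7% intermediate and 47.6% unmethylated. The 32 methylated germline starts had a median of 15 CpG per promoter, against 6 in the whole class, and none carried H3K4me3 in both libraries. Slc25a31 had a start level of 92.8, 94.0 and 91.8% over 45 cytosines and was listed at 0, 0 and 0.10 TPM. Sohlh2, a helix-loop-helix factor of germ cells, had 93.7, 93.3 and 92.0%, Hormad1, a protein of the meiotic chromosome axis, 92.4, 92.7 and 94.0%, Mael, a protein of the piRNA pathway, 91.0, 87.9 and 91.9%, and Sycp1, of the synaptonemal complex, 87.4, 88.8 and 86.7%. Hsf5, a heat shock factor of the testis, was the most uniform of these, at 96.2, 96.5 and 96.2%. These levels agreed between the libraries within a few points. Rbmxl2, with 152 cytosines, varied more, at 81.0, 71.0 and 68.0%, and fell under the limit within 500 bases (69.2%) or without replicate 1 of ERRBS (69.5%).

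The 4 silent germline genes with an unmethylated start stood apart from that group. Tdrd5, a Tudor protein of the piRNA pathway, was listed at 0 TPM in all 3 libraries with 2.56, 2.29 and 3.00% over 67 cytosines and no H3K4me3 peak, and its promoter holds 48 CpG. Dazl and Boll, RNA-binding proteins of germ cells, fell between the limits, at 43% and 47%, each over 96 cytosines.

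Genes of other tissues were split between the classes. Of 8 silent liver and gut genes 1 was unmethylated, 4 were intermediate and 3 methylated. Of 8 silent brain and muscle genes 1 was unmethylated, 5 were intermediate and 2 methylated. Among all silent starts these shares were 47.6, 35.7 and 16.7%. The liver regulator Hnf4a was methylated at 89.3, 90.8 and 84.4% over 5 cytosines, and the muscle regulator Myog at 84.3, 86.2 and 76.4% over 4. The epithelial junction gene Cldn4 was methylated at 85.1, 83.0 and 84.9%. Within 500 bases Cldn4 stood at 39.3%, which is intermediate. The gut regulator Cdx2 was unmethylated at 7.29, 4.40 and 6.49%, and the neuronal glutamate transporter Slc17a7 at 8.43, 1.99 and 2.94%. By gene symbol, again grouped after the values were seen, 13 of 17 keratin genes (Krt) and 12 of 16 olfactory receptor genes (Olfr) were silent and methylated, against 4.18% of all starts. The testis histone pair H2ac1 and H2bc1 shares 1 window and stood at 95.3, 95.1 and 93.5% although H3K4me3 lay within 1 kb in both libraries.

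Between these classes lay 886 silent genes with an intermediate start, at a median of 20.4% with a median SD of 3.78 points. Imprinted genes, of which normally only the copy from 1 parent is expressed, made up 13 of them. Of 21 silent imprinted starts these 13 were intermediate, against 35.7% of all silent starts. They had a median of 49.2% and ranged from 11.7 to 68.6%, among them Peg3 at 49%, Nnat at 56% and Magel2 at 57%. Of all 38 imprinted genes with a classed start, 17 had an unmethylated and 4 a methylated start. The class limits cut a continuous spread, with 218 starts from 8 to 10% and 184 from 10 to 12%. Among silent genes Dner at 9.99% fell just inside the unmethylated class and Prdm13 at 10.01% just outside, and Kcnj15 at 70.1% fell just inside the methylated class and Cmtm5 at 69.9% just outside.

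**Figure D3:**
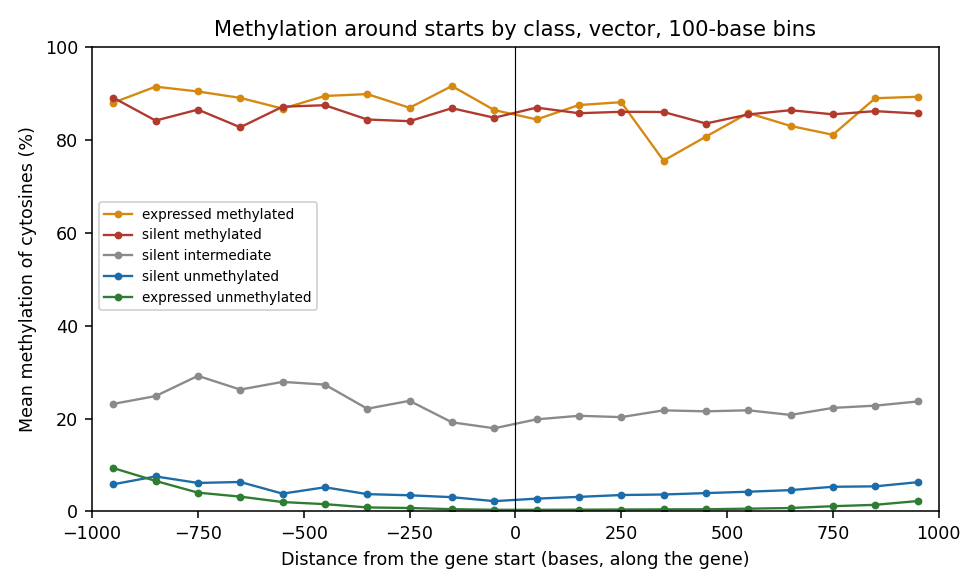
Mean methylation of cytosines (percent, y axis) by distance from the gene start in bins of 100 bases (x axis, negative before the start), for 5 classes of starts in vector. Silent unmethylated starts stay between 2.19 and 7.52% over the whole window, with the lowest bin next to the start, and both methylated classes stay above 75%.

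The 66 genes expressed despite a methylated start had the thinnest data. Their median level was 88.1% over a median of 5.5 cytosines, and 60 of them were at 70% or more in every library. In 52 of them the TPM was at least 5 in all 3 libraries, and in 56 in vector replicate 1 taken alone. The measured cytosines often lay away from the start, since the nearest one was a median of 372.5 bases off, against 22 bases at all starts. A start inside a RefSeq promoter stretch was found for 39 of these genes, and in 26 of them no cytosine of that stretch was measured. In 9 the stretch held at least 3 measured cytosines, and all 9 were at 70% or more there. These cytosines are among those that set the class, all 11 of them in Jade1 and all 3 in Timd2, so this is no separate check. These 9 were Jade1, Apoc2, Rhd, Srgn, 1300017J02Rik, Nradd, Rpl22, Tpst1 and Timd2. By comparison, at all starts 71.6% of such stretches held at least 3 measured cytosines.

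Many of these genes have a listed start away from the gene end. A transcript start more than 1 kb from the gene end was listed for 38 of the 66 (57.6%), against 15.2% of all starts. For 26 (39.4%) a start of that kind was unmethylated, against 6.67% of all starts, and 27 (40.9%) had no listed transcript start within 1 kb of the gene end, against 6.18%. With the level taken at the listed transcript starts, 32 of the 60 genes with a value were methylated, 9 intermediate and 19 unmethylated. Larp1, an mRNA-binding protein of translation control, had 90.6, 88.0 and 83.4% at its gene end and 159, 161 and 130 TPM. Its listed transcript start stood at 0.20%. Ldha, lactate dehydrogenase, had 73.6, 76.6 and 77.0% with 152, 77.5 and 67.6 TPM, and its lowest listed start stood at 0.63%. Rnf123, a ubiquitin ligase subunit, was the most abundant, with 2858, 5820 and 2847 TPM, at 95.0, 96.7 and 92.4% over 4 cytosines. Its listed start stood at 0.47%. None of these 3 genes had a listed transcript start within 1 kb of the gene end. Their methylated gene end was therefore not a listed start.

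H3K4me3 divided the 66 genes into 4 sets. It lay within 1 kb of the methylated start in both vector libraries for 23 (34.8%), against 97.5% of all expressed starts, and in 1 library for 2. For 29 it lay only elsewhere in the gene or at another start, in at least 1 library, and for 12 it was found at neither. Whether or not the start was marked, 63.6% had a peak elsewhere or at another start in both libraries, against 64.5% of all expressed starts. Elsewhere meant more than 1 kb from both gene ends, so the last 1 kb of a gene was not part of this search. Of the first set, Rpl22, a protein of the large ribosomal subunit, had 82.8, 87.9 and 84.2% over 12 cytosines with 606, 557 and 728 TPM. Csk, the kinase that holds Src-family kinases inactive, had 93.2, 92.3 and 93.4% over 4 cytosines with 257, 186 and 208 TPM. Lat, the adaptor of T cell receptor signalling, had 74.6, 74.1 and 73.3% over 17 cytosines with 34.7, 70.2 and 57.5 TPM, but its class rests on the window, since the level was 21.4% within 500 bases, and it was 69.5% when cytosines were weighted by calls. Bhlha15, a factor of plasma and other secretory cells, had 88.6, 87.8 and 90.6% with 4.60, 13.4 and 7.47 TPM. In all 4 the mark and the methylated cytosines share the 2 kb window, and levels were close between libraries. Csk and Rpl22 each have another listed start more than 1 kb away with H3K4me3 in both libraries, at 0.595% and 16.6%. An end of another expressed gene lies within 1 kb of the start of Lat. Which start made the transcripts was not tested.

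The 12 genes with no H3K4me3 peak found at the start, at another start or more than 1 kb inside the gene included several of other blood cells. They were 1300017J02Rik, Amigo3, Apoc2, Ermap, Fcgrt, Ffar1, Gm15455, Igflr1, Lcn2, Trim10, Ttll3 and Zap70. Trim10 had 1.30, 113 and 26.1 TPM in vector replicates 1, 2 and 3 with a level of 83.7, 88.9 and 65.6%. Ermap, a blood group protein of red cells, had 6.92, 212 and 39.0 TPM with 91.4, 84.1 and 79.5%, and 1300017J02Rik had 14.6, 687 and 117 TPM with 82.8, 87.9 and 78.5%. Lcn2, a lipocalin of neutrophils, had 1.67, 40.6 and 33.5 TPM with a mean level of 83.5%. All 4 were lowest in replicate 1 and higher in the 2 libraries with more red cell and macrophage transcripts. Zap70, a kinase of T and NK cells, had 7.75, 12.8 and 9.75 TPM with 85.7, 78.03 and 91.5% over 3 cytosines. Others differed less between libraries. Amigo3, an adhesion protein, had 49.1, 70.1 and 57.6 TPM with 86.0, 82.8 and 82.6%, and Ffar1, a receptor of fatty acids, 19.3, 10.9 and 12.04 TPM with 88.3, 87.5 and 88.1% over 21 cytosines. Amigo3 overlaps Rnf123, and no source used here says that counting was by strand, so reads of the pair may not be separable.

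A TPM in vector replicate 1 below 50% of that in both other libraries was found for 11 of the 66 (16.7%). The share was 3.16% of all expressed starts and 8.39% of all starts. Besides the 4 just named these were Fcgrt, Mst1, Nxpe4, Rhd, Siglece, Slc11a1 and Slpi. Rhd, an antigen of red cells, had 0.62, 38.1 and 7.68 TPM (4.15 TPM without replicate 2, under the limit) with 83.7, 86.9 and 80.3%, and Slc11a1, a metal transporter of phagocytes, had 1.995, 17.7 and 23.9 TPM with a mean level of 94.6%. The ERRBS libraries are separate samples, so the level of these starts in the cells that made the RNA was not measured. In all, 12 of the 66 genes (18.2%) overlapped another expressed gene, against 12.9% of the expressed genes with an unmethylated start. Srgn, the proteoglycan of secretory granules, was steady at 86.1, 85.9 and 123 TPM with 96.0, 96.8 and 93.7% over 12 cytosines, 7 of them in its promoter stretch.

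**Figure D4:**
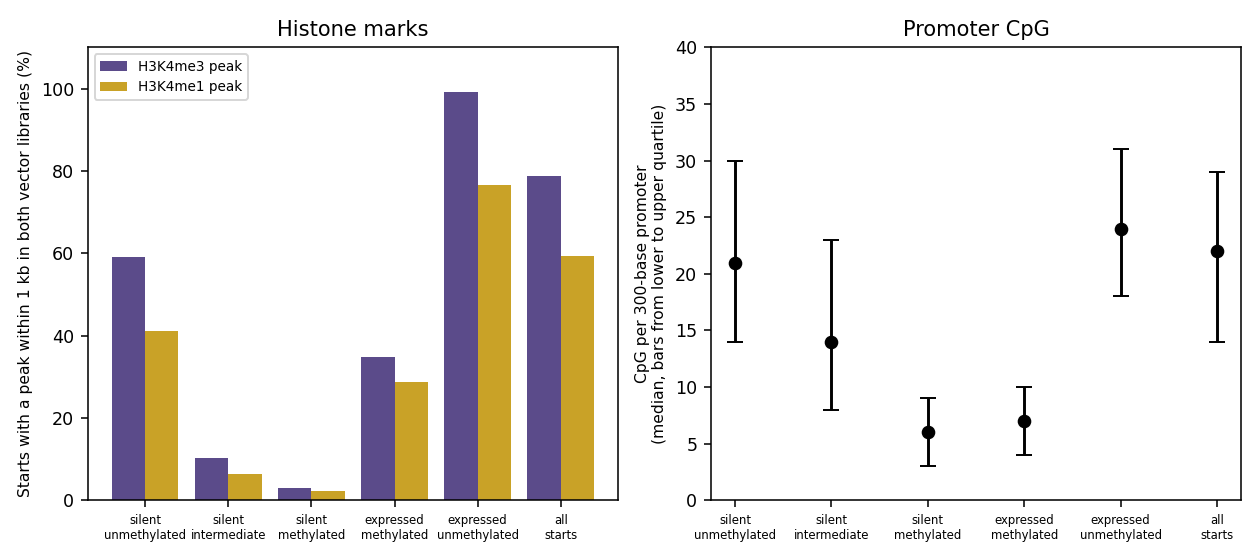
Left, share of starts with an H3K4me3 or H3K4me1 peak within 1 kb in both vector libraries (percent, bars from 0), by class. Right, number of CpG per 300-base promoter by class, as median with lower and upper quartile. Silent unmethylated starts carry H3K4me3 at 59.1%, silent methylated ones at 2.90% and expressed methylated ones at 34.8%, and their median CpG numbers are 21, 6 and 7, against 22 at all starts.

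The finish of the same gene differed with the class of the start among silent genes and little among expressed ones. Where it was measured, the median finish level was 54.5% in silent genes with an unmethylated start (327 genes), 85.1% in silent genes with a methylated start (126 genes) and 89.8% in expressed genes with a methylated start (18 genes), against 81.5% in all 2170 genes. In expressed genes with an unmethylated start it was 87.7% (1094 genes). In short genes the windows of both ends overlap, as at H4c1 with 0.108% at each end, and such genes were not left out.

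The SHMT2 libraries took no part in the sorting, so the classes could be looked up in them. The same class was reached from the SHMT2 libraries by 960 of 1173 silent unmethylated starts with a value there (81.8%), by 373 of 399 silent methylated ones (93.5%) and by 52 of 60 expressed methylated ones (86.7%). Over all starts it was reached by 8934 of 9810 (91.1%). Among silent unmethylated starts the share was 90.3% with H3K4me3 in both vector libraries and 67.3% without it. Those without it lay closer to the limit of 10% in vector, with a median of 6.01% against 1.90%. The median level of silent unmethylated starts was 3.38, 5.17 and 2.76% in SHMT2 replicates 1, 2 and 3, and 3.83, 2.86 and 3.13% in vector replicates 1, 2 and 3. That of silent starts with no H3K4me3 peak was 25.4, 41.1 and 19.09% in SHMT2 libraries, and 23.9, 17.4 and 20.2% in vector libraries. Silent developmental starts stood at 9.25, 14.4 and 6.81% in SHMT2 libraries, and at 8.17, 6.42 and 8.002% in vector libraries. SHMT2 replicate 2 was the highest library each time. SHMT2 replicate 1 lay within the vector libraries in the first set and above all of them in the last 2. SHMT2 replicate 3 lay below them in the first set and within them in the last 2. At silent methylated starts SHMT2 replicate 2 was the lowest library, with medians of 87.1, 83.3 and 88.5% in SHMT2 libraries, and 88.1, 89.0 and 86.3% in vector libraries.

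**Figure D5:**
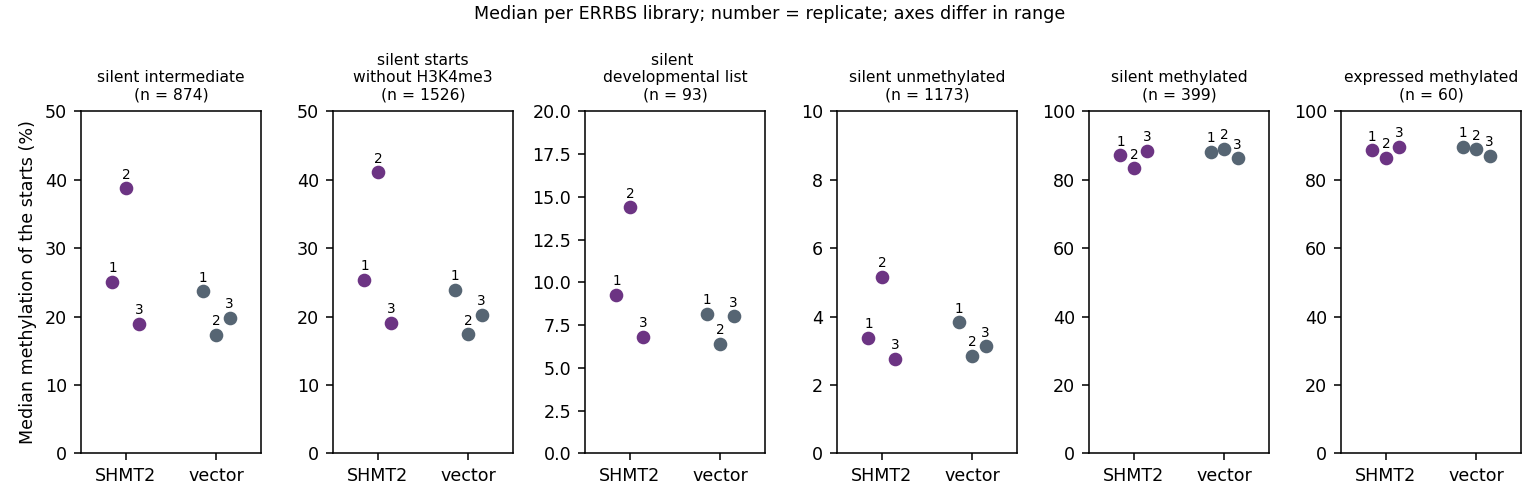
Median methylation of the starts (percent, y axis, ranges differ between panels) in each ERRBS library, SHMT2 left of vector, for 6 sets of starts, with replicate numbers at the points. SHMT2 replicate 2 lies at 41.1% for silent starts without H3K4me3, where the other 5 libraries lie between 17.4 and 25.4%.

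No end differed between SHMT2 and vector past the threshold. A binomial model of the summed calls, with Benjamini-Hochberg adjustment over all ends, called 0 of 16202 ends at an adjusted p under 0.05 and 10 points (0% called), with a smallest adjusted p of 0.882 and 556 ends at an unadjusted p under 0.05. The median SHMT2 minus vector difference was 0.48 points at silent unmethylated starts, 5.96 points at silent intermediate ones and -1.30 points at silent methylated ones, and without SHMT2 replicate 2 it was -0.02, 1.11 and 0.38 points. For expression, limma on log2(TPM + 1) called 0 of 11117 genes of at least 1 TPM (0% called), with 1858 at an unadjusted p under 0.05. Without vector replicate 1 it called 850 of 11136 genes (7.63%), of which 12 were among the 66 expressed genes with a methylated start, 6 higher and 6 lower in SHMT2. The 6 lower ones were Trim10, Ermap, Lcn2, Nxpe4, Siglece and Slc11a1, all among the 11 genes that vector replicates 2 and 3 held at higher levels, and the 6 higher ones were Ldha, Csk, Enkd1, Mea1, Mvp and Timd2. The red cell genes summed to 720, 443 and 828 TPM in SHMT2 libraries, against 468, 10595 and 2500 TPM in vector libraries, and the macrophage and neutrophil genes to 1795, 736 and 757 TPM in SHMT2 libraries, against 501, 5372 and 4214 TPM in vector libraries. The part of these cells in the calls was not tested. Ldha had 165, 163 and 191 TPM in SHMT2 libraries, against 152, 77.5 and 67.6 TPM in vector libraries, so its call rests on leaving out the vector library nearest to the SHMT2 libraries. Only 2 silent unmethylated and 1 silent methylated gene passed the filter of 1 TPM, so expression changes of the silent classes could not be read. The labels do not state that replicates were separate animals, and each p-value therefore reflects sample spread that may be technical.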

How the data were processed

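RNA-seq values were deposited as TPM for 23382 gene symbols, and the submitters' processing notes name STAR and mm10. What turned alignments into TPM is not stated there. The deposited ERRBS tables hold, per the file headers, coverage (the count of reads over a cytosine) and percent C, and list no cytosine covered under 10 times. The submitters' processing notes name Bismark and Bowtie2. The H3K4me3 and H3K4me1 peaks are the authors' MACS2 peaks per library on BWA alignments, per the submitters' processing notes. Their deposited fold enrichment and −log10 q-value were not used to filter them.

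Gene ends were the limits of RefSeq gene spans on GRCm38.p6, the build also called mm10, with the strand from the RefSeq promoter table (16457 of 20665 genes). Symbols were matched directly or through older symbols (1785 of 19418 genes). Levels are unweighted means over 1279939 cytosines covered 10 or more times in all 3 vector libraries, and every measured cytosine inside the RefSeq promoters lay in a CpG. Both strands are listed apart. A peak counted with 1 base of overlap. Expression was tested with limma 3.58.1 (R 4.3.3, pseudocount of 1 TPM, mean of at least 1 TPM, no block), so fold changes are on the log2(TPM + 1) scale. Methylation was tested with a binomial regression whose overdispersion was moderated across ends (Python 3.11.15, NumPy 2.4.6, SciPy 1.17.1). Both were tested on simulated data.

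The genes and lists were chosen with earlier results of these data known. Named genes are the 10 with the most cytosines per class, the 10 most expressed of the expressed methylated class, and up to 5 list members per class. Genes named in lists of names by H3K4me3, library or call, list members at intermediate levels, and the symbol groups were chosen after their values were seen. Alternatives varied the window, coverage, cytosine minimum, limits, weighting, start definition, libraries and replicate block. The inputs were not analysed here.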

Additional observations from a re-analysis of the deposited data

How the results depend on the processing

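The counts of silent unmethylated starts (1182) and of silent methylated and expressed methylated ones (414 and 66) depend on which end is taken as the start, the number of cytosines asked for, the window and the class limits. With at least 10 cytosines the methylated counts were 123 and 14, within 500 bases 269 and 39, and with at least 1 cytosine 105 expressed methylated starts were found. With limits of 5% and 80% there were 779 silent unmethylated starts, with 0.1 and 10 TPM 766, and with 1 TPM for both limits 122 expressed methylated starts. With the end that carries H3K4me3 taken as the start, the methylated counts were 12 and 27. Without genes listed at 0, an alternative chosen after seeing the data, 196 silent methylated starts were left. At the other ends, a window of 500 bases gave 124 silent unmethylated, 249 silent methylated and 423 expressed methylated ends. With at least 10 cytosines rho was -0.56 at starts and -0.038 at finishes. Leaving out a replicate gave 1136 to 1227, 408 to 416 and 65 to 68 starts in the 3 classes. It gave 0 to 850 genes called for expression, with 850 without vector replicate 1. Samples were not paired by replicate number. The correlations of same-numbered deviations from the group means were -0.42, -0.33 and -0.06 in RNA-seq and -0.16, -0.38 and -0.04 in ERRBS. Deviations within a group of 3 depend on each other, so these values cannot exclude a shared batch. With a replicate block 0 genes and 0 ends were called, with 1180 and 500 at an unadjusted p under 0.05. Of 165 values of named genes under another coverage minimum, window or weighting, 135 moved by less than the spread between replicates and 30 by more. The cause was not tested. TPM carry no depth, and thin coverage limits the methylated classes most.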
